A study of Mus musculus with 8 samples.

Results

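The lysosome was followed here through 45 genes that encode its acid hydrolases, the proteins of its membrane, their transcriptional regulator Tfeb and the subunits of the proton pump that acidifies it. Of these, 28 were named individually and 17 were taken by symbol as every pump gene in the authors' table, 8 of the membrane sector (V0) and 9 of the catalytic sector (V1). The count table held 54309 genes, of which these were a small set named by function. All libraries came from whole liver of male C57BL/6 mice with steatohepatitis brought on by 16 weeks of a fructose, palmitate and cholesterol diet. The treated mice (antiCD47, 4 libraries) received an antibody against CD47, a surface protein that signals to macrophages not to engulf the cell, at 200 µg per mouse by intraperitoneal injection from week 8 to week 16. The control mice (IgG, 4 libraries) were on the same diet and received IgG instead. The series describes 7 to 8 mice per group. The labels do not say which animal each library came from, so the p-values measure the spread between these libraries, which may be technical in part. Every mouse had the diet, and no mice on ordinary chow were analysed here.

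Lysosomes break down proteins, glycans, lipids and whole organelles that reach them by endocytosis, phagocytosis or autophagy. Their hydrolases need an acid interior, which the vacuolar proton pump maintains: the V1 sector on the cytosolic side hydrolyses ATP and drives proton transport through the V0 sector in the membrane. The transcription factors TFEB, TFE3 and MITF bind short E-box elements known from human work as CLEAR elements, many of them near the start of lysosomal genes. In liver the hydrolases are made by hepatocytes and, at high levels, by Kupffer cells and other macrophages, which digest engulfed cells.

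The E-box core CACGTG is one sequence feature that the choice of genes did not use, and the promoters below show genes that carry it beside the 2 genes whose expression changed. Sequences are the 250 bases before the annotated start, from RefSeq (GRCm38.p6), 5′ to 3′ on the gene's strand, with CACGTG in capitals. Such a window was available for 36 of the 45 genes. Lamp1 (chr8:13158911-13159160, plus strand) holds 4 cores, starting 61, 45, 28 and 15 bases before the start. Ctsd (chr7:142387828-142388077, minus strand) holds 2 cores, as do Mcoln1 (chr8:3500269-3500518, plus strand) and Atp6v0b (chr4:117887330-117887579, minus strand). Ctsc (chr7:88277835-88278084, plus strand) and Ctsk (chr3:95498960-95499209, plus strand) hold none in these windows.
Lamp1: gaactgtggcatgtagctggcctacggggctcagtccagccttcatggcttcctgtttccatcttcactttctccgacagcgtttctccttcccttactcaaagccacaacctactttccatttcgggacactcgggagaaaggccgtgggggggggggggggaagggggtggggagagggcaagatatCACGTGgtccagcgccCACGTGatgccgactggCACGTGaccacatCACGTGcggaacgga
Ctsd: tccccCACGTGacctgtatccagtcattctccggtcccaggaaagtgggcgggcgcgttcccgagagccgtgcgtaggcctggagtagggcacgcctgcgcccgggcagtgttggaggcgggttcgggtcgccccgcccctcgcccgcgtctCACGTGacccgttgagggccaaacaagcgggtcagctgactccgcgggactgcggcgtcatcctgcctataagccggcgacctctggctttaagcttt
Mcoln1: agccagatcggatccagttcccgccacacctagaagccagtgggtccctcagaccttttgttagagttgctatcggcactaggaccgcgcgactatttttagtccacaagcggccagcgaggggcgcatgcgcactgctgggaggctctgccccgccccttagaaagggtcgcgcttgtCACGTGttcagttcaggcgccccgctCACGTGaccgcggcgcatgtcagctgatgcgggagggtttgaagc
Atp6v0b: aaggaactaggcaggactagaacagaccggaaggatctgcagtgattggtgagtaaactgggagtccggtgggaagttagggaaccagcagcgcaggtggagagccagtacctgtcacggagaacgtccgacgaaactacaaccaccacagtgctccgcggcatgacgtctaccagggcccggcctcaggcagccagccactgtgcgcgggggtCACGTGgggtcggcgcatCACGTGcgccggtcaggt
Ctsc: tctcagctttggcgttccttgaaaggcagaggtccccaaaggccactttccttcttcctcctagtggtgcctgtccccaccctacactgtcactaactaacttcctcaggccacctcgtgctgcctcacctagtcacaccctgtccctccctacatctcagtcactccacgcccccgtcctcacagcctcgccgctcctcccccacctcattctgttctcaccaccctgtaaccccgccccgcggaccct
Ctsk: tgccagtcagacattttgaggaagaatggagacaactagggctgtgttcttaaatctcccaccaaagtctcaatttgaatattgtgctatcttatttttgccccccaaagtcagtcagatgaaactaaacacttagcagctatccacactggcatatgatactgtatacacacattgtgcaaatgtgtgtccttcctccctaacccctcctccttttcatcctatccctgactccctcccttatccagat

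On either strand, CACGTG was found in the windows of 12 of the 36 genes (33.3%), namely Atp6v0b, Atp6v1a, Ctsa, Ctsd, Ctsf, Ctsl, Gaa, Gla, Glb1, Lamp1, Lgmn and Mcoln1. It was found for 6.86% of 27025 annotated genes in windows of the same length. The longer form TCACGTG, which contains that core, was found for 10 of the 36 (27.8%) against 3.58% of all genes. The palindrome TCACGTGA, which contains both, was found for 5 of them (13.9%; Atp6v1a, Ctsa, Ctsd, Gla and Mcoln1) against 0.907% of all genes. A match describes these letters only and is not a measured binding site.

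Most lysosomal genes stood at similar levels in antiCD47 and IgG livers, and only Ctsc and Ctsk passed the test. Ctsc, which encodes cathepsin C, rose 1.8-fold in antiCD47 livers. Ctsk, which encodes the collagen-degrading cathepsin K, fell to 0.442 of its level in IgG livers. All 45 genes passed the filter on low counts, and edgeR's quasi-likelihood test with Benjamini-Hochberg adjustment over 15472 genes called 2 of them at an adjusted p under 0.05 (4.44%). Over all genes tested, 10.8% were called, 5.44% as higher and 5.4% as lower in antiCD47 livers. The lysosomal share was 2.22% in each direction, from 1 gene each. It was below the background with TMM scaling, but with library totals 35.6% of the 45 genes passed as lower, above the 20.4% of all genes. Values below are CPM, a gene's count relative to its library's size, with sizes scaled by the trimmed mean of M-values (TMM), and log2 fold changes are antiCD47 over IgG.

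With TMM scaling, the spread of the lysosomal genes around no change was narrow. The genes set beside them were all genes tested, not genes matched by level, and the part of level in the differences below was not tested. Their median log2 fold change was -0.052, beside -0.006 over all genes tested, and the median of its size was 0.115, beside 0.208. Library totals removed that contrast, with a median size of 0.26 for the 45 genes and 0.26 for all genes tested. The 95% confidence interval lay within 1.5-fold in either direction for 39 of the 45 genes (86.7%), compared with 54.3% of all genes tested. The other 6 genes, with wider or more distant intervals, were Npc1, Ctsc, Ctsk, Atp6v0d2, Atp6v0e2 and Atp6v1g2. The median SE of the 45 log2 fold changes was 0.079, beside 0.129 over all genes tested. At an unadjusted p under 0.05 stood 9 of the 45 (20%) and 32.5% of all genes tested.

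**Figure D1:**
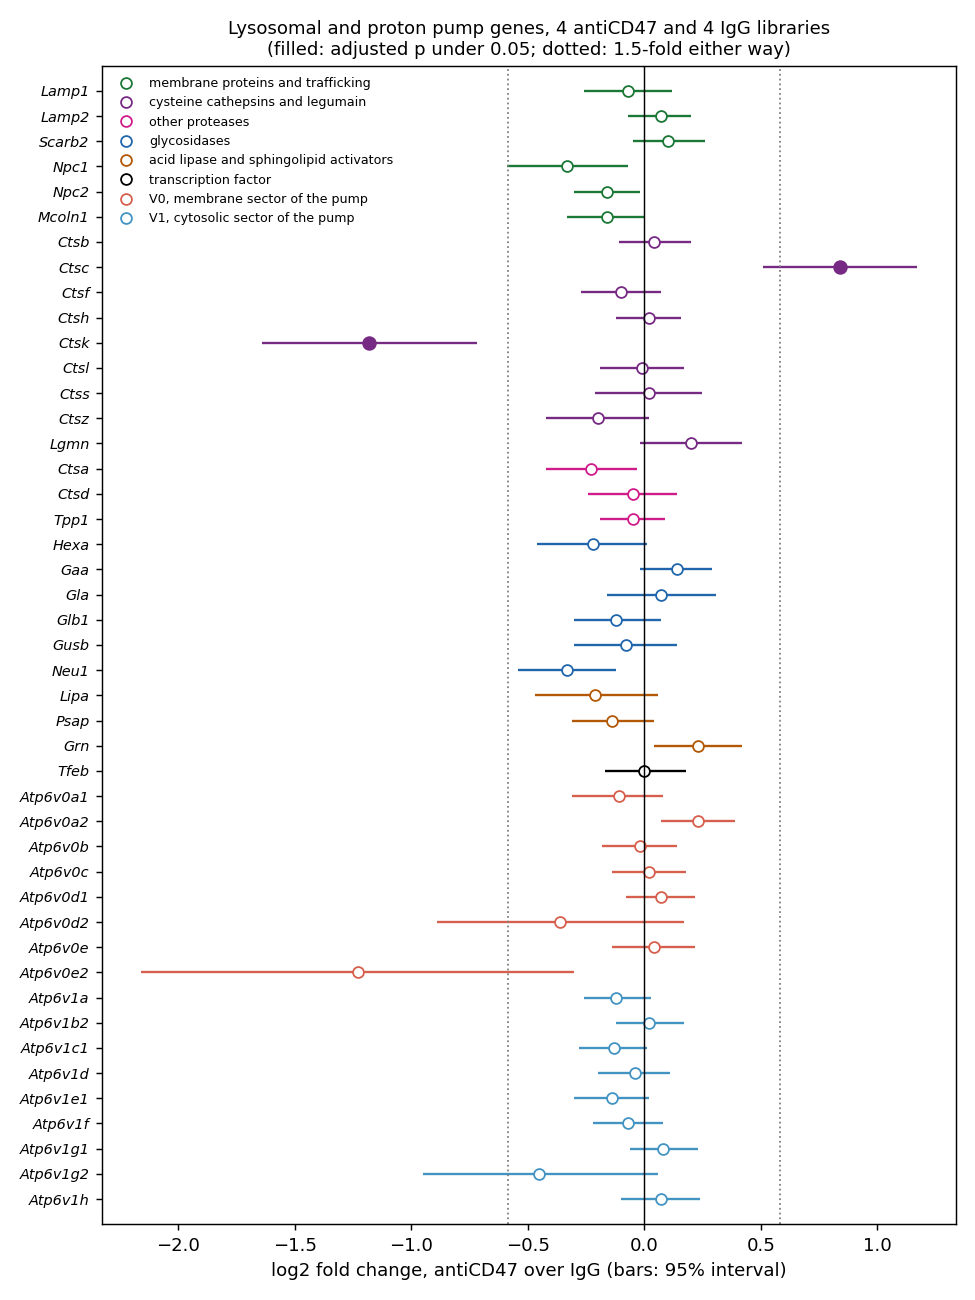
Log2 fold change (antiCD47 over IgG, x axis) of each of the 45 genes, grouped by role, with its 95% confidence interval as a bar. The intervals of Ctsc (0.84) and Ctsk (-1.18) lie far from 0, while 39 of the 45 intervals stay within 1.5-fold.

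The membrane proteins had log2 fold changes between -0.33 and 0.10, and none of the 6 passed the test in edgeR, where 2 had an unadjusted p under 0.05 and DESeq2 called 1 (Npc1). Library totals called Npc1, Npc2 and Mcoln1 as lower. Lamp1, which encodes a heavily glycosylated protein lining the lysosomal membrane, stood at 889, 754, 867 and 845 CPM in the antiCD47 livers and at 905, 931, 909.9 and 783 CPM in the IgG livers. The groups overlapped, with a log2 fold change of -0.07 (95% interval -0.26 to 0.12). Lamp2, whose product also takes part in autophagy, averaged 520.3 ± 10.8 CPM in antiCD47 livers and 497 ± 15 CPM in IgG livers (SD, n = 4 each). Scarb2, which encodes the carrier of glucocerebrosidase to lysosomes, averaged 220 ± 17.3 CPM in antiCD47 livers and 205 ± 2.49 CPM in IgG livers.

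NPC1 and NPC2 together export cholesterol from the lysosome, and both transcripts had values on the lower side without passing the test. Npc1 stood at 85.1, 88.0, 76.8 and 109 CPM in antiCD47 livers and at 128, 97.9, 113 and 111 CPM in IgG livers. The antiCD47 4 library lay within the IgG range, and the log2 fold change was -0.33 ± 0.11 (SE; adjusted p in edgeR = 0.0856). Npc2 stood at 85.7, 75.3, 80.4 and 82.4 CPM in antiCD47 livers and at 87.5, 85.8, 95.4 and 92.9 CPM in IgG livers. Its groups did not overlap, by the margin between 85.7 and 85.8 CPM, and the log2 fold change was -0.16 ± 0.06 (SE; adjusted p in edgeR = 0.12). Mcoln1, which encodes a calcium channel of the lysosomal membrane, averaged 27.1 ± 1.66 CPM in antiCD47 livers and 30.4 ± 2.0 CPM in IgG livers (SD, n = 4 each), a log2 fold change of -0.16 ± 0.07 (SE; adjusted p in edgeR = 0.155).

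Among the cysteine cathepsins and legumain, cathepsin C moved up, cathepsin K moved down and the other 7 did not pass the test. Ctsc encodes the dipeptidyl peptidase that activates the serine proteases of neutrophils and other immune cells. It stood at 109.9, 183, 159 and 128 CPM in antiCD47 livers and at 71.4, 81.3, 81.2 and 88.8 CPM in IgG livers. Every antiCD47 library lay above every IgG library, with antiCD47 2 the highest of all. The log2 fold change was 0.84 ± 0.15 (SE; 95% interval 0.51 to 1.17; edgeR adjusted p = 0.0174), from 27945 counts in antiCD47 livers and 17368 counts in IgG livers. Its antiCD47 libraries also spread more, with a coefficient of variation of 22.4% in antiCD47 livers and 8.84% in IgG livers.

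Ctsk, best known from bone-resorbing osteoclasts and also made by fibroblasts, was a rare transcript here. Its level was 2.85, 1.39, 2.21 and 2.32 CPM in antiCD47 livers and 5.68, 4.07, 4.97 and 5.12 CPM in IgG livers. Every antiCD47 library lay below every IgG library, with antiCD47 2 the lowest. It fell by 1.18 on the log2 scale, with an SE of 0.21 (95% interval -1.64 to -0.72; edgeR adjusted p = 0.0175), on 422 counts in antiCD47 livers and 1057 counts in IgG livers. Both calls depended on which libraries were included. Without antiCD47 3, IgG 1, IgG 3 or IgG 4 the adjusted p was between 0.0562 and 0.0631 for Ctsc and between 0.0549 and 0.0634 for Ctsk. In those fits 21, 174, 92 and 2 genes passed over the whole table, beside 1678 in the main fit. With any 1 library left out, the unadjusted p in edgeR was at most 0.00101 for Ctsc and 0.00095 for Ctsk. Over all 15 alternatives the adjusted p ranged from 6.55e-06 (DESeq2) to 0.0631 for Ctsc and from 5.38e-06 (DESeq2) to 0.0634 for Ctsk. The direction stayed in each such fit, with log2 fold changes of 0.71 to 0.96 for Ctsc and of -1.33 to -1.01 for Ctsk when any 1 library was left out.

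**Figure D2:**
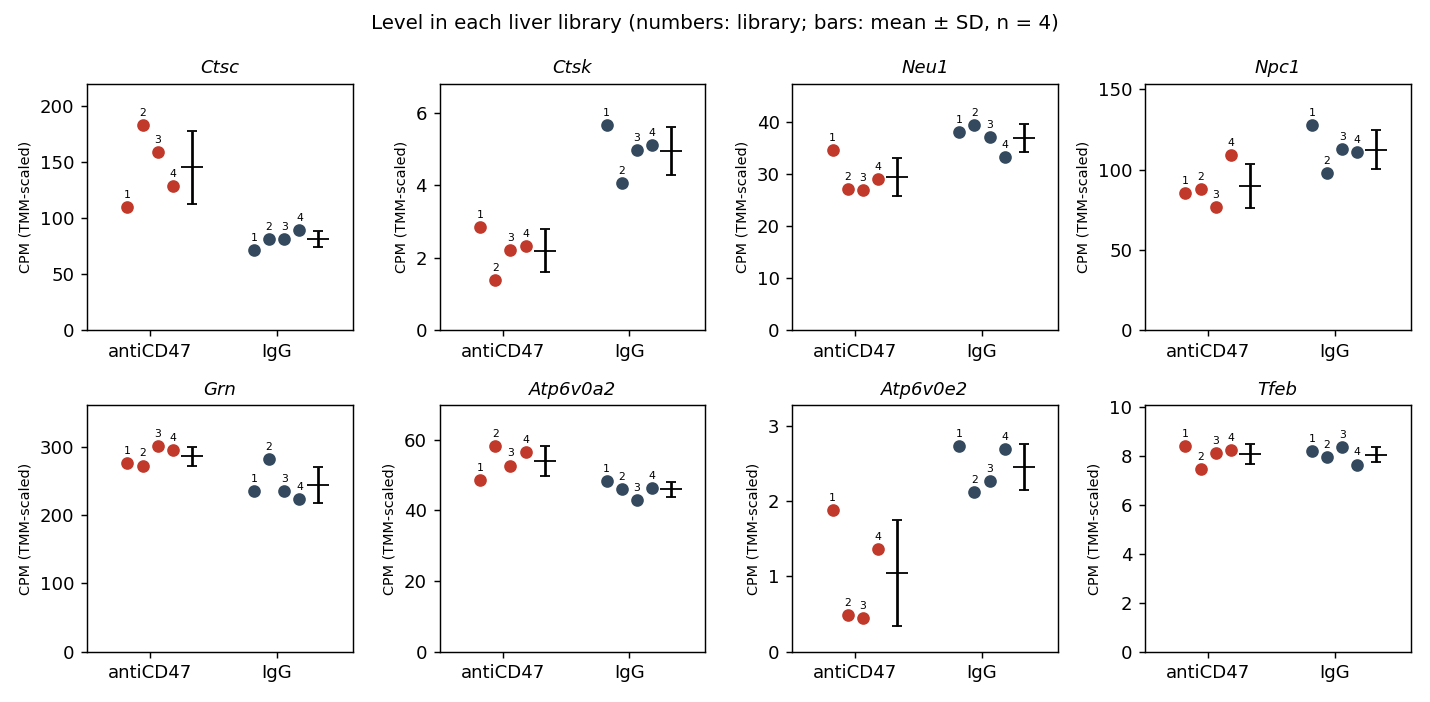
Level in each library (CPM on the TMM scale, y axis of each panel) of Ctsc, Ctsk, Neu1, Npc1, Grn, Atp6v0a2, Atp6v0e2 and Tfeb, with antiCD47 libraries left of IgG libraries and black bars for the mean and SD (n = 4). The groups separate for Ctsc (109.9 to 183 against 71.4 to 88.8 CPM) and Ctsk (1.39 to 2.85 against 4.07 to 5.68 CPM).

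The remaining cysteine proteases were steady with TMM scaling, whereas library totals called Ctsz and Ctsf as lower. Ctsb, an abundant broad-acting protease, stood at 740, 699, 776 and 756 CPM in antiCD47 livers and at 678, 739, 759.6 and 705 CPM in IgG livers, with overlapping groups and a log2 fold change of 0.04 (95% interval -0.11 to 0.2). Ctsl, a broad endopeptidase, averaged 439.8 ± 16.8 CPM in antiCD47 livers and 443 ± 40.3 CPM in IgG livers (SD, n = 4 each). Ctss, the protease that trims the invariant chain of MHC class II in antigen-presenting cells, averaged 132 ± 7.41 CPM in antiCD47 livers and 131 ± 19.5 CPM in IgG livers. For these 3 genes the log2 fold change lay between -0.01 and 0.04. Ctsh, an aminopeptidase, averaged 184 ± 4.27 CPM in antiCD47 livers and 182 ± 10.6 CPM in IgG livers. Ctsz, a carboxypeptidase, averaged 219 ± 20.1 CPM in antiCD47 livers and 251 ± 28.4 CPM in IgG livers. Lgmn, the asparaginyl endopeptidase that processes other cathepsins, averaged 131 ± 6.67 CPM in antiCD47 livers and 114 ± 16.6 CPM in IgG livers. Neither Ctsz (log2 fold change -0.20, edgeR adjusted p = 0.183) nor Lgmn (0.20, 0.188) passed. Ctsf was low and even, at 18.4 ± 1.27 CPM in antiCD47 livers and 19.7 ± 1.06 CPM in IgG livers.

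The 3 proteases of other classes did not pass the test in edgeR either, where 1 (Ctsa) had an unadjusted p under 0.05 and DESeq2 called 0. Library totals called Ctsa and Tpp1 as lower. Ctsd, the aspartic protease cathepsin D, stood at 529, 428, 504 and 489.7 CPM in antiCD47 livers and at 503, 496, 551 and 472 CPM in IgG livers. Its groups overlapped, with antiCD47 2 lowest, and the log2 fold change was -0.05 (95% interval -0.24 to 0.14). Ctsa, the serine carboxypeptidase that also protects β-galactosidase and sialidase in a complex, averaged 137 ± 14.0 CPM in antiCD47 livers and 160.2 ± 12.6 CPM in IgG livers (SD, n = 4 each), a log2 fold change of -0.23 ± 0.09 (SE; adjusted p in edgeR = 0.113). Tpp1, an aminopeptidase that removes tripeptides, averaged 95.3 ± 2.76 CPM in antiCD47 livers and 98.8 ± 6.3 CPM in IgG livers.

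None of the 6 glycosidases passed the test in edgeR with TMM scaling, and sialidase, the 1 with an unadjusted p under 0.05, passed in DESeq2. Library totals called Neu1 and Hexa as lower. Neu1, the sialidase of the same complex, stood at 34.5, 27.0, 26.9 and 29.0 CPM in antiCD47 livers and at 38.0, 39.4, 37.0 and 33.1 CPM in IgG livers. Only antiCD47 1 lay within the IgG range, and the log2 fold change was -0.33 ± 0.09 (SE; 95% interval -0.54 to -0.12; edgeR adjusted p = 0.0535). Hexa, the α subunit of β-hexosaminidase, averaged 93.3 ± 11.9 CPM in antiCD47 livers and 109 ± 11.3 CPM in IgG livers (SD, n = 4 each), a log2 fold change of -0.22 (edgeR adjusted p = 0.175). Gaa, the acid α-glucosidase that degrades glycogen, averaged 82.4 ± 4.11 CPM in antiCD47 livers and 74.9 ± 5.12 CPM in IgG livers, a log2 fold change of 0.14 (edgeR adjusted p = 0.192). The other 3 enzymes, Gla (α-galactosidase A), Glb1 (β-galactosidase) and Gusb (β-glucuronidase), had log2 fold changes between -0.12 and 0.07, with adjusted p-values of 0.353 or more in edgeR. Their levels ranged up to 49.0 CPM in antiCD47 livers and 50.5 CPM in IgG livers, both for Gusb.

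Lipa encodes the acid lipase that hydrolyses cholesteryl esters and triglycerides delivered to lysosomes. It stood at 408, 266, 364 and 372 CPM in antiCD47 livers and at 408, 399, 430.2 and 390.5 CPM in IgG livers. The antiCD47 2 library was far lower than the others, antiCD47 1 lay inside the IgG range, and the log2 fold change was -0.21 ± 0.12 (SE; adjusted p in edgeR = 0.254). Psap, the precursor of the saposins that activate sphingolipid hydrolases, stood at 821, 683, 792 and 796 CPM in antiCD47 livers and at 833, 889.6, 846 and 827 CPM in IgG livers. Its groups did not overlap, yet the 95% interval of its log2 fold change of -0.14 ± 0.08 (SE) ran from -0.31 to 0.04 (edgeR adjusted p = 0.252). Psap passed as lower with library totals. Grn, which encodes progranulin, stood at 277, 273, 301 and 296 CPM in antiCD47 livers and at 236, 283, 236 and 224 CPM in IgG livers. IgG 2 lay within the antiCD47 range, and the log2 fold change was 0.23 ± 0.08 (SE; adjusted p in edgeR = 0.0955). Tfeb, the regulator, was level, at 8.08 ± 0.404 CPM in antiCD47 livers and 8.06 ± 0.313 CPM in IgG livers (SD, n = 4 each), with a log2 fold change of 0.00 (95% interval -0.17 to 0.18).

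On the TMM scale the proton pump as a whole was even, and none of its 17 genes passed the test in edgeR. At an unadjusted p under 0.05 stood 2 of them (Atp6v0a2 and Atp6v0e2), both called by DESeq2. The summed level of the pump genes was 869.9, 815, 860.5 and 811 CPM in antiCD47 livers and 854, 883, 846 and 795 CPM in IgG livers, with overlapping groups. As a share of all counts they took up 0.0831, 0.0729, 0.0785 and 0.0801% in antiCD47 livers. In IgG livers the share was 0.0876, 0.0915, 0.0929 and 0.0882%, without overlap. EdgeR with library totals called Atp6v0e2, Atp6v1a, Atp6v1c1, Atp6v1e1 and Atp6v1f as lower, beside 20.4% of all genes. The median log2 fold change was 0.00 over the 8 V0 genes and -0.07 over the 9 V1 genes. Atp6v0c, the proteolipid of the rotating ring, stood at 165, 167, 175 and 157 CPM in antiCD47 livers and at 164, 180.0, 159.9 and 151 CPM in IgG livers, a log2 fold change of 0.02 (95% interval -0.14 to 0.18). Atp6v0b, another ring subunit, averaged 52.8 ± 2.78 CPM in antiCD47 livers and 53.5 ± 4.03 CPM in IgG livers (SD, n = 4 each). Atp6v0d1, the common form of the subunit that couples ring and stalk, averaged 71.4 ± 2.98 CPM in antiCD47 livers and 67.9 ± 4.96 CPM in IgG livers. Atp6v0e, a small membrane subunit, averaged 31.5 ± 2.58 CPM in antiCD47 livers and 30.7 ± 2.19 CPM in IgG livers.

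The larger log2 fold changes within the pump belonged to isoforms that share a place in it, and none passed the test in edgeR with TMM scaling. Of these, Atp6v0e2, Atp6v0d2 and Atp6v1g2 had the fewest counts and the largest SEs of the pump genes (0.41, 0.24 and 0.23). Subunit a steers the pump to particular membranes: Atp6v0a2 stood at 48.7, 58.1, 52.7 and 56.5 CPM in antiCD47 livers and at 48.3, 46.1, 42.9 and 46.4 CPM in IgG livers. The groups did not overlap, with antiCD47 higher, and the log2 fold change was 0.23 ± 0.07 (SE; 95% interval 0.07 to 0.39; edgeR adjusted p = 0.0645). Atp6v0a1, the other a isoform of the set, averaged 42.8 ± 5.24 CPM in antiCD47 livers and 46.3 ± 2.27 CPM in IgG livers (SD, n = 4 each). Per kilobase of exon, Atp6v0a2 made up 42.2, 53.2, 49.5 and 51.0% of the a1 and a2 sum in antiCD47 livers and 42.9, 42.2, 41.9 and 44.5% in IgG livers, where antiCD47 1 fell inside the IgG range.

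Atp6v0e2, the minor e isoform, was a rare transcript. It stood at 1.89, 0.483, 0.451 and 1.37 CPM in antiCD47 livers and at 2.73, 2.13, 2.27 and 2.70 CPM in IgG livers. Every antiCD47 library lay below every IgG library, but the antiCD47 libraries spread widely, with a coefficient of variation of 67.2% in antiCD47 livers and 12.4% in IgG livers. The log2 fold change was -1.23 ± 0.41 (SE; adjusted p in edgeR = 0.079), on 201 counts in antiCD47 livers and 525 counts in IgG livers. Its share of the e and e2 sum per kilobase was 11.4, 3.24, 2.58 and 8.56% in antiCD47 livers and 16.0, 12.2, 12.5 and 16.6% in IgG livers. Atp6v0d2, the d isoform known from osteoclasts and macrophages, averaged 4.72 ± 1.46 CPM in antiCD47 livers and 6.04 ± 1.35 CPM in IgG livers (SD, n = 4 each; log2 fold change -0.36, edgeR adjusted p = 0.32).

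None of the 9 V1 genes passed the test or had an unadjusted p under 0.05 in edgeR with TMM scaling, and DESeq2 called 0. EdgeR with library totals called Atp6v1a, Atp6v1c1, Atp6v1e1 and Atp6v1f as lower. On the TMM scale the log2 fold changes of the 9 genes lay between -0.45 (Atp6v1g2) and 0.08 (Atp6v1g1). Atp6v1a, the catalytic subunit that hydrolyses ATP, stood at 64.2, 55.5, 60.0 and 58.0 CPM in antiCD47 livers and at 68.0, 64.2, 64.1 and 61.6 CPM in IgG livers. These groups overlapped at antiCD47 1, with a log2 fold change of -0.12 (95% interval -0.26 to 0.03). Atp6v1b2, its non-catalytic partner, averaged 54.2 ± 1.53 CPM in antiCD47 livers and 53.3 ± 3.86 CPM in IgG livers (SD, n = 4 each). Atp6v1c1, which links V1 to V0, stood at 39.8, 34.8, 39.9 and 40.1 CPM in antiCD47 livers and at 43.1, 42.4, 43.5 and 40.5 CPM in IgG livers, without overlap and with a log2 fold change of -0.13 ± 0.07 (SE; adjusted p in edgeR = 0.193). The stalk subunits Atp6v1d, Atp6v1e1, Atp6v1f and Atp6v1g1 had log2 fold changes between -0.14 and 0.08. Atp6v1h, the regulatory H subunit, averaged 53.9 ± 5.08 CPM in antiCD47 livers and 51.4 ± 2.28 CPM in IgG livers. Atp6v1g2, the G isoform known from neurons, was the lowest of the 45 genes per kilobase and averaged 0.747 ± 0.0548 CPM in antiCD47 livers and 1.02 ± 0.233 CPM in IgG livers, on 144 and 217 counts (edgeR adjusted p = 0.201).

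Pump genes outside the symbol rule behaved alike. Tcirg1, the a isoform known from osteoclasts, averaged 25.9 ± 0.967 CPM in antiCD47 livers and 26.9 ± 2.53 CPM in IgG livers (SD, n = 4 each; log2 fold change -0.06, edgeR adjusted p = 0.648). The accessory subunits Atp6ap1 and Atp6ap2 had log2 fold changes of 0.02 and -0.00. Of 14 tested genes of this wider list, which also holds assembly factors and regulators, edgeR called 0, with an unadjusted p under 0.05 for 3 (Rogdi, Ccdc115 and Tldc1). Over all genes tested these shares were 10.8% and 32.5%. A further 8 genes with pump symbols were in the count table but outside the authors' table, and had at most 20 counts each over all 8 libraries, the most for Atp6v0a4.

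**Figure D3:**
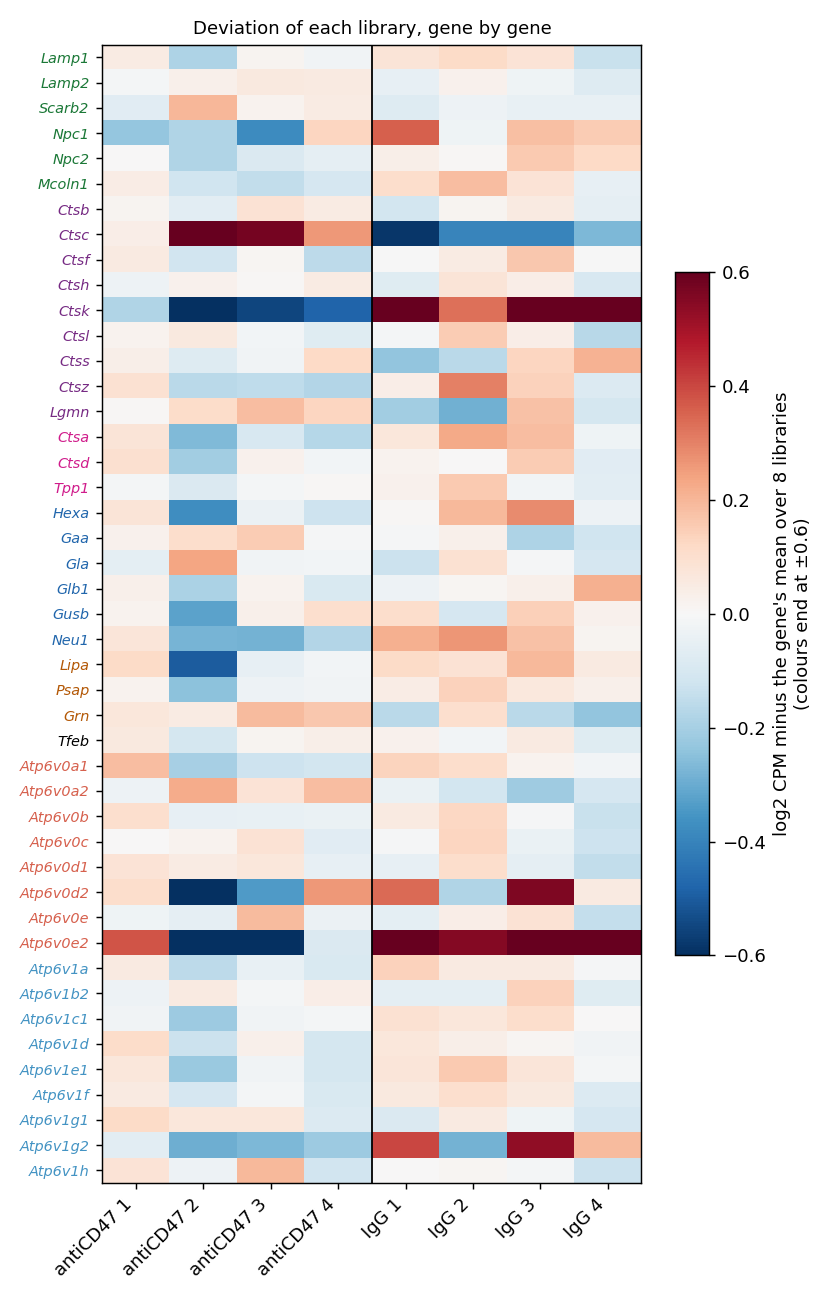
Level of each gene (rows, ordered by role) in each library (columns, antiCD47 left of IgG) as the log2 difference from that gene's mean over all 8 libraries. Most rows are pale in both groups, Ctsc, Ctsk and Atp6v0e2 differ between the groups, and the column of antiCD47 2 holds the lowest value for 20 of the 45 genes.

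The libraries of a gene were close together, and departures were shared by many genes. The median coefficient of variation of the 45 genes was 7.2% in antiCD47 livers and 7.0% in IgG livers. Over all genes tested, again not matched by level, it was 14.1% in antiCD47 livers and 9.9% in IgG livers. The antiCD47 2 library was the lowest of all 8 for 20 of the 45 genes (44.4%), and for 25.6% of all genes tested. IgG 2 was the highest of all 8 for 14 genes (31.1%, against 9.35% of all genes tested), and IgG 4 was the lowest for 11 (24.4%, against 11.7%). Groups that did not overlap were seen for 7 of the 45 genes (15.6%), against 19.6% of all genes tested. In the upward direction these were Ctsc and Atp6v0a2 (4.44%, against 9.51%). In the downward direction they were Npc2, Ctsk, Psap, Atp6v0e2 and Atp6v1c1 (11.1%, against 10.1%).

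Compared per kilobase of exon, the order of levels was led by Lamp1, at 376 ± 26.5 CPM per kilobase in antiCD47 livers and 396 ± 30.0 in IgG livers (SD, n = 4 each). Psap followed at 282 ± 22.4 CPM per kilobase in antiCD47 livers and 309 ± 10.3 in IgG livers, and Ctsd at 229 ± 20.1 CPM per kilobase in antiCD47 livers and 238 ± 15.5 in IgG livers. Next came Ctsz, at 152 ± 13.9 CPM per kilobase in antiCD47 livers and 174 ± 19.7 in IgG livers, and Ctsb, at 157 ± 6.97 CPM per kilobase in antiCD47 livers and 152 ± 7.64 in IgG livers, whose order differed between the groups. Atp6v0c, the highest pump gene, ranked 6 of 45 at 132 ± 6.14 CPM per kilobase in antiCD47 livers and 130.2 ± 9.5 in IgG livers. Ctsc ranked 25 and stood at 27.2 ± 6.1 CPM per kilobase in antiCD47 livers and 15.2 ± 1.34 in IgG livers. Ctsk ranked 40 at 1.45 ± 0.4 CPM per kilobase in antiCD47 livers and 3.28 ± 0.439 in IgG livers, and Tfeb ranked 42. At the low end were Atp6v0e2 and Atp6v1g2, both under 1.5 CPM per kilobase in every group mean.

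**Figure D4:**
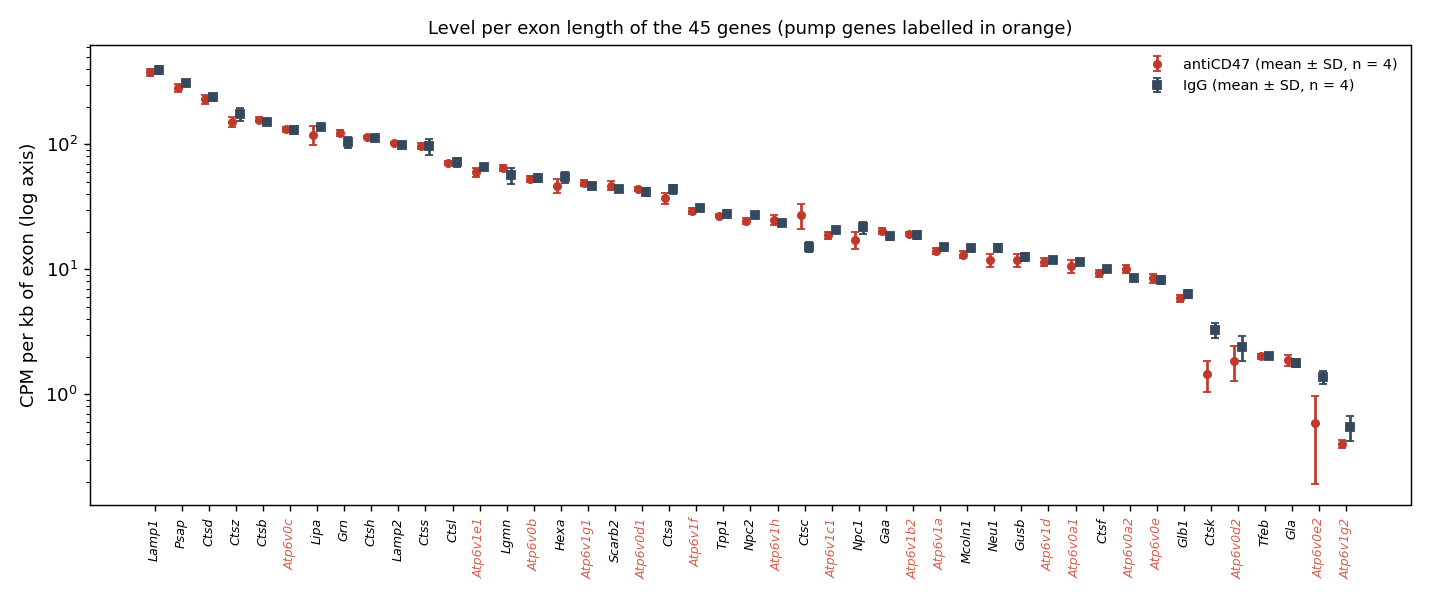
Mean level of each gene in CPM per kilobase of exon (log axis), ranked, with antiCD47 and IgG means and SDs (n = 4 each). The genes span from Lamp1 at 376 and 396 CPM per kilobase to Atp6v1g2 at 0.399 and 0.545, and the paired points lie close together except for Ctsc, Ctsk and Atp6v0e2.

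Scaling of the libraries bore on the direction of the small differences. As a share of all counts, without TMM scaling, the 45 genes took up 0.693, 0.595, 0.656 and 0.699% in antiCD47 livers and 0.725, 0.771, 0.81 and 0.754% in IgG livers, with no overlap. On the TMM scale their summed level was 7253, 6647, 7188 and 7072 CPM in antiCD47 livers and 7067, 7439, 7379 and 6796 CPM in IgG livers, with overlap. Scaling by library totals moved the median log2 fold change of all genes to -0.19 and that of the 45 genes to -0.24. With those totals 14 of the 18 genes whose log2 fold change was above 0 stood below it, all but Ctsc, Lgmn, Grn and Atp6v0a2. Of the 45 genes, 17 then passed the test (37.8%), beside 23.1% of all genes tested. In the downward direction 16 passed (35.6%), beside 20.4% of all genes, and in the upward direction 1 (2.22%, Ctsc), beside 2.77%. Those lower were Ctsk, Npc1, Npc2, Mcoln1, Psap, Ctsa, Tpp1, Ctsz, Ctsf, Hexa, Neu1, Atp6v0e2, Atp6v1a, Atp6v1c1, Atp6v1e1 and Atp6v1f.

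**Figure D5:**
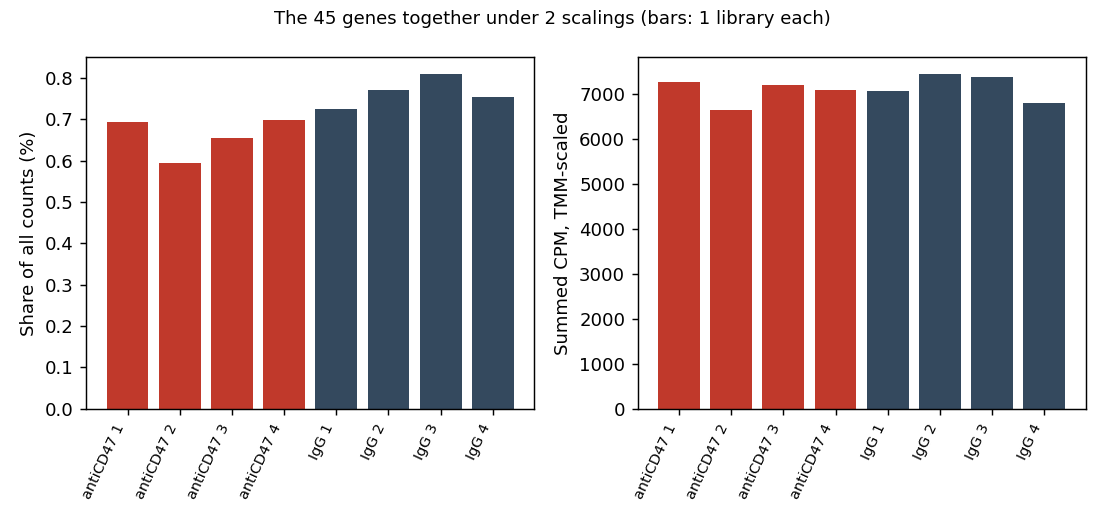
The 45 genes together in each library (bars, antiCD47 left of IgG), as a percentage of all counts on the left y axis and as summed CPM on the TMM scale on the right y axis. The groups are apart on the left (0.595 to 0.699% in antiCD47 livers, 0.725 to 0.81% in IgG livers) and overlap on the right.

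Other tools called more of these genes. A separate DESeq2 run called 7 of the 45, adding Atp6v0a2, Atp6v0e2, Grn, Neu1 and Npc1 to Ctsc and Ctsk, beside 20.5% of all genes tested. In limma voom 3 passed, with Atp6v0e2 added, beside 11.3% of all genes. In the authors' deposited table, made from its own normalization, 5 of the 45 had an adjusted p under 0.05 (11.1%), beside 18.4% of its genes. They were Ctsc (1.93e-05), Ctsk (9.44e-06), Npc1 (0.017), Neu1 (0.0288) and Atp6v0e2 (0.0466). The table does not state which group its fold changes are relative to, and their signs matched antiCD47 over IgG for 42 of the 45 genes.

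The genes with the E-box core did not stand out in their fold changes. Over the 12 genes with CACGTG in the promoter window the median log2 fold change was -0.06, within a range of -0.23 to 0.20, and 0 of them passed the test (smallest edgeR adjusted p 0.113, for Ctsa). At an unadjusted p under 0.05 stood 1 of them, and DESeq2 called 0. Library totals called Atp6v1a, Ctsa, Ctsf and Mcoln1 of these as lower, along with genes that had a window and no core. Over the 24 genes with a window and no core the median was -0.08, within -1.23 to 0.84, and 2 passed.

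Related genes of the same organelle behaved much alike. For the counts below, edgeR called 10.8% of all genes tested, 5.44% as higher and 5.4% as lower in antiCD47 livers. The counts were small and no list was tested as a set. Among the other hydrolases and activators tested, 0 rose, while Sgsh and Naglu, which degrade heparan sulphate, fell, with log2 fold changes of -0.39 and -0.40 (edgeR adjusted p = 0.0463 and 0.0443). Of 31 other membrane proteins tested, 2 rose and 1 fell. Cd63, a tetraspanin of late endosomes, averaged 28.8 ± 6.88 CPM in antiCD47 livers and 49.3 ± 7.38 CPM in IgG livers (SD, n = 4 each; edgeR adjusted p = 0.028). Slc11a1, a metal transporter of phagosomes, and Slc15a3, a peptide transporter, rose by log2 fold changes of 0.82 and 0.83, both with overlapping groups. Of 22 genes of hydrolase sorting and lysosome positioning tested, Arl8b and Plekhm1 rose (0.56 and 0.41) and the sorting receptor Sort1 fell (-0.62). Of 21 genes of the TFEB family and its mTORC1 control tested, 0 rose, and Rragd (-0.99), Tsc1 (-0.43) and the coactivator Ppargc1a (-0.99) fell, while Tfe3 (0.39, edgeR adjusted p = 0.104) and Mitf (0.21, 0.314) did not pass. Of 25 autophagy genes tested, 1 rose and 0 fell: Map1lc3b, which coats the autophagosome membrane, averaged 168 ± 12.8 CPM in antiCD47 livers and 135 ± 8.46 CPM in IgG livers (SD, n = 4 each; edgeR adjusted p = 0.0318). The median log2 fold change of each of these lists lay between -0.08 and 0.06, beside -0.006 over all genes tested.

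Markers of liver cell types differed between the same libraries. Over all genes tested, edgeR called 5.44% as higher and 5.4% as lower in antiCD47 livers. In whole tissue fewer cells of a type and less RNA per cell cannot be told apart. Of 18 Kupffer cell markers tested, 10 rose and 0 fell, and their summed level was 992, 1431, 1248 and 1188 CPM in antiCD47 livers and 787, 659, 864 and 758 CPM in IgG livers. Of 14 neutrophil markers, Ltf, Camp, Elane and Mpo did not pass the count filter, and all 10 tested rose. Several of the 10 were near the floor in IgG livers, such as Ngp (mean 0.134 CPM) and Il1r2 (0.229 CPM). Such genes may have passed the filter only through the antiCD47 livers, so their rise is not independent of it. The summed levels of the 14 were 18.3 to 38.4 CPM in antiCD47 livers and 7.54 to 10.2 CPM in IgG livers. The antiCD47 libraries stood in the same order for Ctsc as for the Kupffer cell sum, with antiCD47 2 highest and antiCD47 1 lowest. The IgG libraries did not: Ctsc was highest in IgG 4 and lowest in IgG 1, the Kupffer cell sum highest in IgG 3 and lowest in IgG 2. The neutrophil sum was also highest in antiCD47 2, but among antiCD47 libraries it was lowest in antiCD47 4. Among IgG libraries the neutrophil sum was highest in IgG 2. The antiCD47 2 library was the highest of all 8 for 26.8% of all genes tested. The part of these cells in the Ctsc result was not tested. Of 14 stellate cell and fibroblast markers tested, 0 rose and 6 fell, all genes of matrix or its crosslinking, among them Lox, Col1a2, Col1a1 and Loxl1. Dcn, Des, Pdgfrb, Pdgfra, Acta2, Lrat, Reln and Thy1 did not pass, with log2 fold changes from -0.43 (Pdgfrb) to 0.18 (Des). The summed level of the 14 was 801, 586, 715 and 784 CPM in antiCD47 livers and 1051, 907, 1065 and 1284 CPM in IgG livers. The antiCD47 libraries stood in the same order for Ctsk as for that sum, both lowest in antiCD47 2, the lowest library for 25.6% of all genes tested. Among IgG libraries both were lowest in IgG 2, but Ctsk was highest in IgG 1 and the sum in IgG 4. The part of these cells in the Ctsk result was not tested. Of 12 biliary markers tested, 0 rose and 11 fell, with sums of 122 to 370 CPM in antiCD47 livers and 452 to 621 CPM in IgG livers. Most of each sum was Spp1, at 78.4 to 301 CPM in antiCD47 livers and 358 to 497 CPM in IgG livers. Spp1 is also in the next list and its sums. Of 18 markers of recruited and lipid-associated macrophages tested, 2 rose and 2 fell, with sums of 716 to 1102 CPM in antiCD47 livers and 1025 to 1281 CPM in IgG livers. Of 14 hepatocyte markers tested, 2 rose and 0 fell, and their sum of 80494 to 98143 CPM in antiCD47 livers and 74559 to 80346 CPM in IgG livers was led by Alb, as the tissue label has it. Of 9 B and plasma cell markers tested, 1 rose and 0 fell, and all 8 red cell markers rose. No marker of these lists, tested or not, was at 0 in every library. Library totals were 43691472 to 55477484 counts, and 27899 of the 54309 genes had no count in any library.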

How the data were processed

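Whole-liver RNA (4 antiCD47 and 4 IgG libraries) was sequenced as polyadenylated RNA. The deposited gene counts were whole numbers that the authors had not normalized; the submitters' processing notes name Salmon 1.3.0, DESeq2 1.32.0 and the build GRCm39, with no role given. The authors' deposited comparison table gave per gene a mean signal (normalized counts), a log2 fold change and its error, p-values and a rank score, which was not used. All value columns were mapped from their names (0 unused). Libraries held 43691472 to 55477484 counts.

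Genes were filtered with edgeR's filterByExpr, scaled by TMM (factors 0.895 to 1.11) and tested with the quasi-likelihood test in edgeR 4.0.16 (R 4.3.3), with Benjamini-Hochberg adjustment over 15472 genes at a threshold of 0.05. DESeq2 1.42.0 and limma 3.58.1 served as alternatives, and the fits were tested on simulated data. The 15 alternatives covered scaling, filter, test, the replicate block and left-out libraries. The common dispersion was 0.028. Replicate libraries of a group differed beyond counting noise (smallest chi-square per degree of freedom 24.2). CPM per kilobase used the exon union of basic protein-coding transcripts (GENCODE M21, GRCm38). Promoter windows came from RefSeq (GRCm38.p6), with sequences for 36 of the 45 genes. Where a gene had several annotated starts, a motif counted if any window held it.

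The members and lists were chosen with earlier results of these data known. All 45 genes were to be named whatever their result, those past the threshold and the smallest p of each role in detail; of each further list, at most 4 genes past the threshold were named. The pump genes had already passed the selection behind the authors' table. The full count over the list of other hydrolases is not reported here.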

Additional observations from a re-analysis of the deposited data

Results flagged for a closer look

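A single library stood apart from the other 3 of its group, by Dixon's test at the 95% level, in 6 of 90 gene-by-group tests, and chance alone flags about 1 in 20. Ctsz was highest in antiCD47 1, at 249 CPM, with the other antiCD47 libraries at 207 to 210.0 CPM. Gla was highest in antiCD47 2, at 6.81 CPM, with the others at 5.55 to 5.70 CPM. Atp6v0b was highest in antiCD47 1, at 56.9 CPM, with the others at 51.2 to 51.5 CPM. Atp6v0e was highest in antiCD47 3, at 35.4 CPM, with the others at 29.9 to 30.5 CPM. Atp6v1c1 was lowest in antiCD47 2, at 34.8 CPM, with the others at 39.8 to 40.1 CPM. In the IgG livers, Atp6v1b2 was highest in IgG 3, at 59.0 CPM, with the others at 51.0 to 51.6 CPM.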

How the results depend on the processing

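Under the 15 alternatives the number of the 45 genes past the threshold, 2 in the main test, was 17 with library totals (1 higher, 16 lower), 7 with DESeq2 (3 higher, 4 lower), 3 with limma voom (2 lower), 4 with the replicate number as a block (1 higher, 3 lower), and 3 without antiCD47 2 and IgG 2 together (2 higher). With any 1 library left out it was 0 to 6 (0 to 2 higher, 0 to 4 lower): 6 without antiCD47 1 and 0 without antiCD47 3, IgG 1, IgG 3 or IgG 4. Over all genes the count of 1678 became 3581 with library totals, 3174 with DESeq2, 1090 without antiCD47 2 and IgG 2 together, and 2 to 3630 with 1 library left out: 3630 without antiCD47 1, 756 without antiCD47 2, 21 without antiCD47 3, 174 without IgG 1, 92 without IgG 3 and 2 without IgG 4. Departures of same-numbered libraries from their group means had correlations of 0.032, 0.157, -0.023 and 0.035 over all genes. These cannot tell whether the numbers pair the samples, since a pairing may touch only some genes. The labels state no pairing. With the replicate block 2425 genes passed over the whole table, beside 1678 without it.

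Directions of small differences changed most with library totals, which gave -0.12 for Lamp2, -0.08 for Scarb2, -0.14 for Ctsb, -0.16 for Ctsh, -0.17 for Ctss, -0.05 for Gaa, -0.12 for Gla, -0.17 for Atp6v0c, -0.11 for Atp6v0d1, -0.15 for Atp6v0e, -0.16 for Atp6v1b2, -0.10 for Atp6v1g1, -0.12 for Atp6v1h and -0.18 for Tfeb, which stood at 0.00 with TMM. Without antiCD47 2 and IgG 2 the values were 0.02 for Ctsl, 0.01 for Tpp1 and 0.04 for Atp6v0b. With 1 library left out, ranges crossed 0 for Ctsl (-0.06 to 0.04), Ctss (-0.05 to 0.10), Ctsd (-0.09 to 0.01), Atp6v0b (-0.06 to 0.02), Atp6v0c (-0.02 to 0.07), Atp6v0e (-0.02 to 0.08) and Tfeb (-0.02 to 0.04). Apart from the shift that library totals bring by construction, the cause of these changes was not tested.

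Ctsc and Ctsk kept their direction in all 15 alternatives and passed in 11. Neu1 passed in 4, Npc1 in 2, Grn in 3, Atp6v0a2 in 2 and Atp6v0e2 in 5. The lowest counts per group were behind Atp6v1g2 (144 in antiCD47, 217 in IgG), Atp6v0e2 (201 and 525) and Ctsk (422 and 1057); whether depth sets their spread was not tested.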
